A study of Oryza sativa with 12 samples.

Results

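Rice seedlings of the genotype Jijing88 were moved into hydroponic medium with or without alkali salts, and the transcripts of their shoots were compared. Described here are the alkali and the control shoots of Jijing88, chosen by their titles: 6 of the 12 arrays of the series, 3 per group, with the shoots of the genotype K83 on the other 6. Jijing88 alkali shoots came from seedlings aged 7 days that spent 24 h in fresh medium holding 50 mM alkali salts, and Jijing88 control shoots from seedlings of the same age that spent 24 h in fresh medium with no such salts. Each array held total RNA from 10 pooled shoots and is titled a biological replicate, which the titles do not tie to separate trays or days, so that p-values measure the spread between these pools. The labels name neither the salts used nor the pH, and no neutral-salt group and no roots were analysed here. A value is a log2 signal of an Affymetrix rice array, and a difference of 1 on that scale is a 2-fold change.

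Alkaline media combine sodium stress with a high pH, at which iron and phosphate become poorly soluble. Rice takes up iron as the ferrous ion, through transporters such as IRT1, and as ferric iron bound to deoxymugineic acid, which is made from nicotianamine and taken in by YSL15. In shoots, nicotianamine and YSL proteins carry iron along the veins, and vacuolar transporters store it. Abscisic acid and jasmonate are hormones of salt and drought responses, cytokinin promotes growth, and the glyoxylate cycle turns acetyl units from fat into organic acids. The deposited annotation gives no gene positions in the array's genome build, so genes are given by symbol and, where a symbol is shared, by locus number.

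The replicates were first set against each other. Against the mean of the other 2 arrays of its group, control replicate 3 had 480 probe sets at least 2-fold higher and 93 lower, while control replicates 1 and 2 had 18 and 74 higher and the 3 alkali arrays had 78 to 83. Control replicate 3 therefore stood apart, and the iron genes, in which it was high, are given below with and without it. The K83 control replicate 3 stood apart in the same direction. It had 211 probe sets at least 2-fold higher and 8 lower, against 19 and 11 higher in K83 control replicates 1 and 2. The control probe set for 25S ribosomal RNA read 9.68, 7.87 and 9.44 in alkali replicates 1, 2 and 3, against 7.84, 8.08 and 8.21 in control replicates 1, 2 and 3. It was high in alkali replicates 1 and 3, and the groups overlapped through replicate 2 (difference 0.95, exact two-sided permutation test p = 0.3, where 0.1 is the smallest possible). The 18S control averaged 13.67 ± 0.18 under alkali and 13.74 ± 0.05 in control, and the dim 5.8S control 4.91 ± 0.58 under alkali and 4.37 ± 0.47 in control (SD, n = 3 each; exact permutation p = 0.8 and 0.3). The 3′ minus 5′ signals of actin, GAPDH and ubiquitin differed by 0.06 to 0.09 between the groups (exact permutation p = 0.5 to 0.7). The leaf transcript RBCS read 14.4 under alkali and 14.5 in control on average, and LHCP 14.1 under alkali and 13.6 in control. Of 14 root markers none was called and 6 lay below the array medians in both groups, among them Lsi2 with means of 3.9 under alkali and 3.8 in control, while PHT1-1 averaged 9.82 under alkali and 9.15 in control, and NIP2-1 and AMT1 were higher than the PHT1-1 control mean in both groups. Of 9 seed markers 2 were called higher, and of 26 meristem markers 1 was called higher and 1 lower. In pooled shoots, fewer cells of a type and less RNA per cell cannot be told apart.

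**Figure D1:**
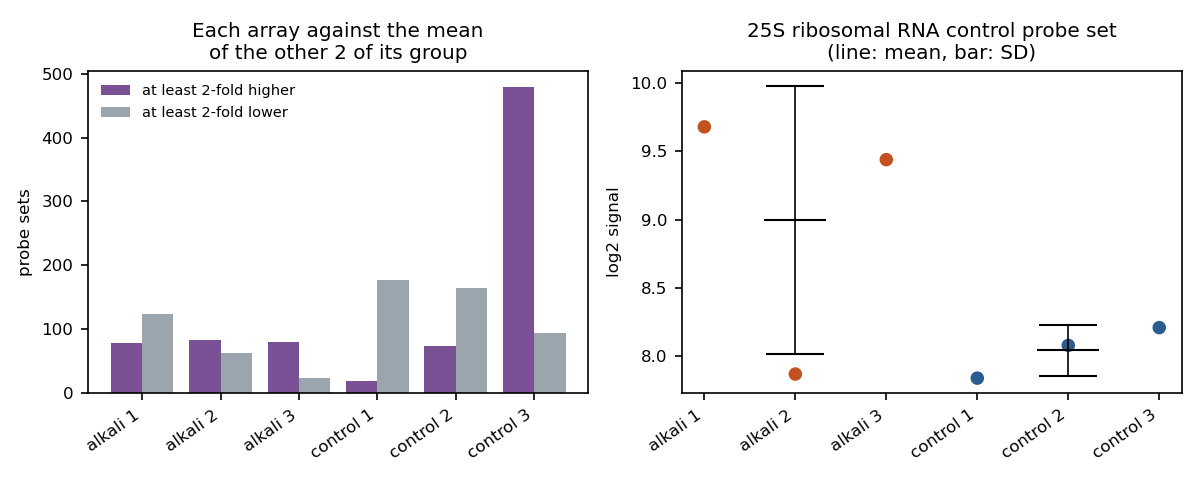
The left panel counts, for each Jijing88 array, the probe sets at least 2-fold higher or lower than the mean of the other 2 arrays of its group; control replicate 3 has 480 higher. The right panel shows the log2 signal of the 25S ribosomal RNA control probe set, with the mean and SD of each group; alkali replicates 1 and 3 lie at 9.68 and 9.44 and the other 4 arrays between 7.84 and 8.21.

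Of 57258 probe sets, 4789 (8.36%) passed an adjusted p of 0.05 in limma, 2456 (4.29%) higher and 2333 (4.07%) lower under alkali, and the changes of at least 2-fold leaned upward, with 802 (1.4%) in all, 613 (1.07%) higher and 189 (0.33%) lower. Over genes, each read from its brightest probe set, 2788 of 17905 (15.6%) were called, 1472 (8.22%) higher and 1316 (7.35%) lower. Such a gene is written below as having risen or fallen. At least 2-fold changes were called for 498 genes (2.78%), 382 (2.13%) higher and 116 (0.648%) lower. The groups did not overlap for 31.6% of all genes, called or not. Among genes that carry a name beyond a locus number, 18.1% of 2448 were called. Against the control mean, alkali replicates 1, 2 and 3 had 766, 827 and 818 probe sets at least 2-fold higher and 229, 280 and 302 lower. When control replicate 2 was left out, 2666 probe sets passed, and when control replicate 3 was left out, 5463 did. With the 25S signal as a covariate 2184 passed, and with the 6 Jijing88 arrays fitted alone 2768.

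The largest rises among named genes were those of the glyoxylate cycle enzymes ICL (isocitrate lyase) and MS (malate synthase), which convert acetyl units to organic acids. ICL read 9.25, 5.84 and 7.82 in alkali replicates 1, 2 and 3, against 4.12, 3.96 and 3.90 in control replicates 1, 2 and 3. MS read 11.56, 8.50 and 10.54 in alkali replicates 1, 2 and 3, against 6.53, 6.65 and 7.26 in control replicates 1, 2 and 3. In both, alkali replicate 1 was highest and replicate 2 lowest, with a span of over 3 log2 units. The difference was 3.64 ± 0.55, adjusted p = 0.00129 for ICL and 3.39 ± 0.52, adjusted p = 0.00137 for MS (± SE, as below). The control signal of ICL lay below every array's median (5.13 to 5.18) and its alkali arrays spread widely, so the size of its 12.5-fold rise is uncertain. Over the alternatives ICL differed by 1.85 to 4.54 and MS by 1.69 to 4.24, both least without alkali replicates 1 and 3. That alternative leaves 1 Jijing88 alkali array, so a call lost in it, here and below, does not show a smaller difference. MFP, a peroxisomal protein of fatty acid oxidation, read 11.73, 11.60 and 11.74 under alkali, against 11.27, 11.25 and 11.75 in control and was not called (0.27 ± 0.12, adjusted p = 0.211). Without control replicate 3 its difference was 0.43 (adjusted p = 0.00607).

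The other rises among the 14 largest took in nitrogen, clock, signalling and hormone genes. GLT2, an NADH-dependent glutamate synthase that assimilates ammonium, had signals of 9.19, 9.06 and 9.20 under alkali, against 7.26, 5.91 and 5.42 in control. Its alkali arrays lay within 0.14 log2 units of each other (2.95 ± 0.32, adjusted p = 0.000123). ASMT1, an enzyme of the last step of melatonin synthesis, had 6.83, 6.47 and 6.15 under alkali, against 3.80, 3.62 and 4.0 in control, from a control level below the array medians (2.67 ± 0.17, adjusted p = 3.28e-06). CIPK14, a kinase of the calcineurin B-like (CBL) calcium sensors, had 11.66, 12.06 and 11.92 under alkali, against 9.66, 9.67 and 8.79 in control (2.50 ± 0.27, adjusted p = 0.000108). The clock gene PRR95, a pseudo-response regulator, had 12.70, 12.76 and 12.87 under alkali, against 10.76, 10.16 and 10.64 in control, with the treated arrays within 0.17 log2 units of each other (2.26 ± 0.16, adjusted p = 7.68e-06). All 4 genes were separated by more than 1.5 log2 units between the lowest alkali and the highest control array.

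Less even were GRXC1, a glutaredoxin, and PM19L1, a membrane protein of the AWPM-19 family. GRXC1 had 10.27, 9.42 and 9.93 under alkali, against 8.30, 8.22 and 5.63 in control (2.49 ± 0.52, adjusted p = 0.00907), with control replicate 3 far below the other controls. PM19L1 had 9.93, 8.97 and 9.27 under alkali, against 6.45, 6.01 and 8.32 in control (2.46 ± 0.43, adjusted p = 0.0031), with control replicate 3 the highest control and still below all alkali arrays. The CCCH zinc finger genes C3H54 and C3H37 rose by 2.59 (adjusted p = 0.00328) and 2.23 (adjusted p = 0.00139), the jasmonate repressor JAZ9 by 2.12 (adjusted p = 0.00669), the beta-glucosidase BGLU16 by 2.26 (adjusted p = 0.000365), the laccase LAC19 by 2.05 (adjusted p = 0.000281) and EM, a LEA protein of seeds, by 2.01 (adjusted p = 0.00427). The call of GRXC1 (adjusted p = 0.0515 to 0.223) was lost in the fit of the 6 Jijing88 arrays alone, in the trended robust fit, with the 25S covariate and without alkali replicates 1 and 3. The calls of PM19L1 (adjusted p = 0.0609 to 0.121) and EM (adjusted p = 0.0742 to 0.141) were lost with the 25S covariate and without alkali replicates 1 and 3.

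The 14 largest falls were led by STLP3, which read 5.31, 5.0 and 4.63 under alkali, against 7.44, 6.92 and 7.86 in control (-2.43 ± 0.24, adjusted p = 5.88e-05), and held 3 cytokinin response regulators, described below. The alkali mean of STLP3 lay below the array medians, which limits the measured size of its fall. STAR2, one of the 2 proteins of an ABC transporter for aluminium tolerance, read 8.32, 8.54 and 8.39 under alkali, against 10.43, 10.30 and 10.10 in control (-1.86 ± 0.13, adjusted p = 6.46e-06). PSY2, a phytoene synthase that opens carotenoid synthesis, read 10.89, 10.60 and 10.70 under alkali, against 11.84, 12.04 and 11.88 in control (-1.20 ± 0.10, adjusted p = 2.77e-05). MHX1, a vacuolar exchanger of magnesium or zinc ions and protons in Arabidopsis, read 8.17, 8.19 and 8.25 under alkali, against 9.24, 9.68 and 9.85 in control (-1.38 ± 0.13, adjusted p = 3.77e-05). All of the 14 largest rises and falls were chosen among genes whose groups did not overlap. CBL4, the rice counterpart of the salt tolerance protein SOS3, fell (-1.23, adjusted p = 0.00335), as did the phenylpropanoid ligase Os4CL2 (-1.18, adjusted p = 0.0023). SAT1, a serine acetyltransferase of cysteine synthesis, read 7.46, 6.88 and 6.90 under alkali, against 8.42, 8.73 and 10.37 in control (-2.09, adjusted p = 0.00384). In SAT1 control replicate 3 was the highest control, and its other probe set differed by 0.14 (adjusted p = 0.763). Without alkali replicates 1 and 3, which leaves 1 alkali array, Os4CL2 differed by -0.71 and SAT1 by -2.29.

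**Figure D2:**
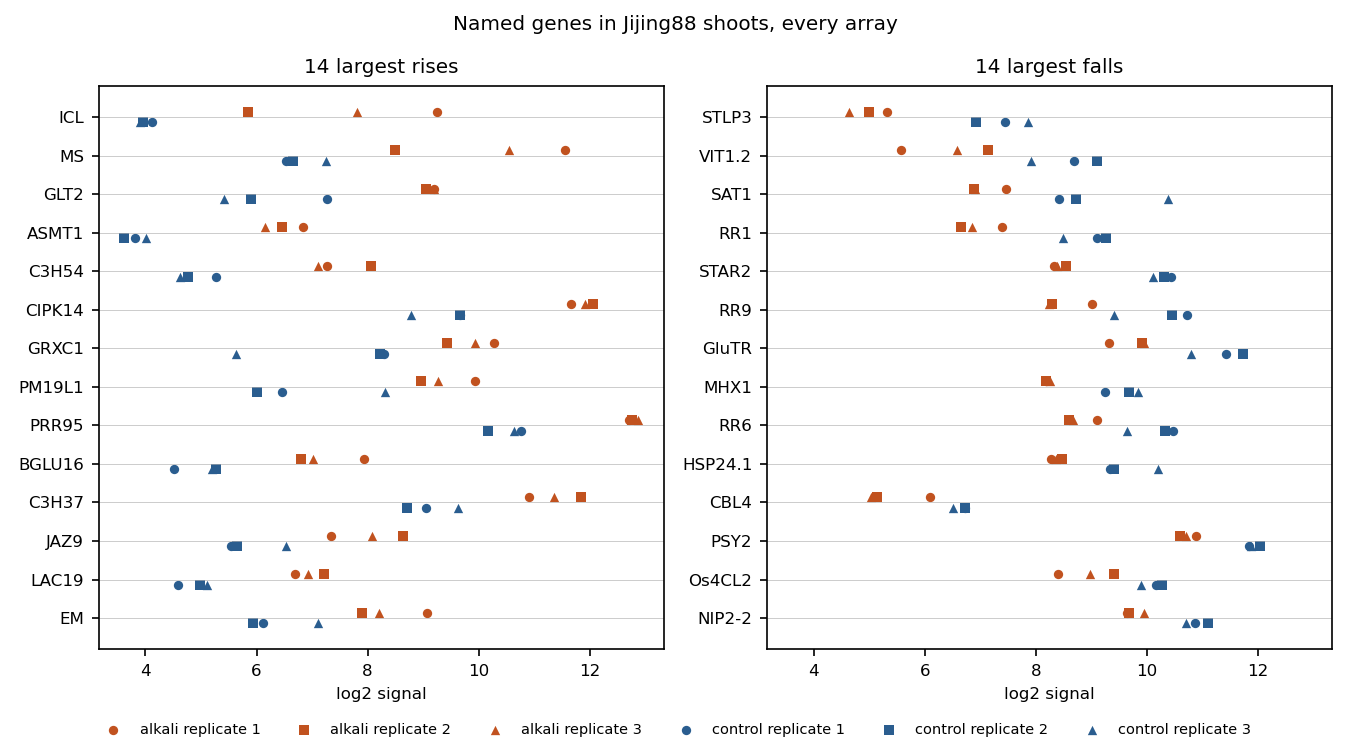
Log2 signal in every Jijing88 array for the named genes called without overlap that rose most (14 genes) and fell most (14 genes). Orange marks alkali and blue control, with a circle, square and triangle for replicates 1, 2 and 3; ICL and MS spread most under alkali, and GRXC1 and PM19L1 most in control.

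Larger differences than those of the named genes above were found in genes known only by a locus number. LOC4324218 read 9.63, 9.64 and 9.56 under alkali, against 5.65, 4.59 and 4.93 in control (4.55 ± 0.21, adjusted p = 2.51e-07), LOC4337274 read 11.43, 10.81 and 10.89 under alkali, against 6.52, 6.58 and 7.18 in control (4.29 ± 0.20, adjusted p = 2.51e-07). LOC4341299 read 8.61, 10.57 and 10.19 under alkali, against 5.35, 4.92 and 7.79 in control, with control replicate 3 high (3.77 ± 0.85, adjusted p = 0.0139). On the falling side, LOC4350534 read 6.91, 6.09 and 6.14 under alkali, against 10.35, 9.88 and 9.77 in control (-3.62 ± 0.25, adjusted p = 7.90e-06). LOC4336526 read 4.38, 4.85 and 4.99 under alkali, against 8.71, 8.67 and 6.30 in control, with control replicate 3 low (-3.15, adjusted p = 0.00162). LOC4348304 read 6.72, 8.33 and 7.97 under alkali, against 10.64, 11.17 and 9.81 in control (-2.87, adjusted p = 0.000359). The call of LOC4341299 (adjusted p = 0.0564 to 0.0943) was lost in the trended robust fit, with the 25S covariate, without control replicate 1, without control replicate 2, without alkali replicate 2, without alkali replicate 3 and without alkali replicates 1 and 3. Without alkali replicates 1 and 3, LOC4336526 differed by -3.05.

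Among iron genes, the transporters Nramp1, IRT1 and IRT2 rose, the vacuolar iron transporter VIT1.2 fell, and the nicotianamine synthases NAS1 and NAS2 were called only when control replicate 3 was left out or given less weight. Of 12 genes for regulation, ferrous transport and storage, 5 rose and 1 fell (50.0% called, against 15.6% of all genes), with a median difference of 0.23, against -0.01 over all genes. Of 25 genes for chelate synthesis and transport, 6 rose and none fell (24.0%, median 0.05). Nramp1, a metal transporter, read 13.19, 12.76 and 12.99 in alkali replicates 1, 2 and 3, against 10.92, 10.25 and 12.06 in control replicates 1, 2 and 3 (1.90 ± 0.31, adjusted p = 0.00207). IRT1 read 9.25, 8.50 and 8.97 under alkali, against 6.61, 6.45 and 8.34 in control (1.77 ± 0.37, adjusted p = 0.00921). IRT2, separated from it in the genome by 2 genes, read 9.19, 8.82 and 8.42 under alkali, against 6.89, 6.89 and 8.15 in control (1.50 ± 0.30, adjusted p = 0.00768). In all 3 genes control replicate 3 was more than 1 log2 unit above the other controls, and it still lay below every alkali array. VIT1.2, a vacuolar iron and zinc transporter, read 5.58, 7.14 and 6.58 under alkali, against 8.68, 9.11 and 7.91 in control (-2.13 ± 0.35, adjusted p = 0.00198), and here control replicate 3 was the lowest control.

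The nicotianamine synthases, whose product binds iron, were not called. NAS1 read 13.76, 13.23 and 13.51 under alkali, against 11.43, 9.96 and 13.42 in control, and NAS2, which lies next to it in the genome, read 13.28, 12.87 and 13.09 under alkali, against 11.47, 10.15 and 13.22 in control. Control replicate 3 lay inside the range of the alkali arrays in both, 2.73 and 2.41 above the mean of the other controls, and the differences were not called (1.90 ± 0.60, adjusted p = 0.076, and 1.47 ± 0.52, adjusted p = 0.118). NAAT1, the aminotransferase that acts on nicotianamine in the path to deoxymugineic acid, read 12.82, 12.18 and 12.36 under alkali, against 10.60, 10.18 and 12.18 in control (1.47 ± 0.41, adjusted p = 0.042), and YSL15, the carrier of ferric deoxymugineic acid, read 9.69, 8.60 and 9.13 under alkali, against 7.17, 6.93 and 8.82 in control (1.50 ± 0.40, adjusted p = 0.0327). The iron-regulated factor BHLH063 (also named IRO3) read 11.39, 10.16 and 10.88 under alkali, against 9.30, 8.63 and 10.24 in control (1.42 ± 0.36, adjusted p = 0.0283). In NAAT1 control replicate 3 overlapped the lowest alkali array, as it did in YSL15 and BHLH063. The call of NAAT1 held in 9 of 22 alternatives, and those of YSL15 and BHLH063 in 14 of 22 each. The trended robust fit ended all 3 (adjusted p = 0.1345, 0.108 and 0.101). That of NAAT1 was also lost when any single alkali replicate was left out (adjusted p = 0.0641 to 0.1354). YSL13 read 9.59, 9.12 and 9.25 under alkali, against 8.37, 8.16 and 8.92 in control (0.83 ± 0.18, adjusted p = 0.00968). YSL14 and YSL16, IDI2 and NRAMP6 made up the remaining rises, of 0.31 to 0.50.

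Without control replicate 3, the differences of Nramp1, IRT1, IRT2, NAAT1, YSL15, BHLH063 and YSL13 were larger and their adjusted p smaller, while the adjusted p of YSL14, YSL16 and NRAMP6 was larger (0.0144, 0.0167 and 0.0301). NAS1 and NAS2 then passed the test (differences 2.80 and 2.27, adjusted p = 0.000852 and 0.000967), and Nramp1, IRT1 and IRT2 differed by 2.39, 2.37 and 1.92. The chelate list then had 8 rises, YSL12 among them (0.63, adjusted p = 0.0422), while IDI2 was lost (adjusted p = 0.0828). Without control replicate 2, by contrast, the chelate list had 0 rises and the other list 3. Control replicate 3 was at least 1 log2 unit above the other controls in 8 of the 37 iron genes and at least 1 below in 0, against 283 (1.58%) and 46 of all 17905 genes. That this array was high in iron genes was known beforehand, so the count describes the array and is no test. The calls gained without it, those of NAS1 and NAS2 among them, are likewise no independent support. The 25S covariate ended the calls of IRT1 (adjusted p = 0.141) and IRT2 (adjusted p = 0.0937) but not of Nramp1 (adjusted p = 0.0395) and VIT1.2 (adjusted p = 0.0399). It also ended those of NAAT1, YSL15, YSL13 and BHLH063 (adjusted p = 0.368, 0.349, 0.15 and 0.298). Of the 11 iron rises, the covariate left 2 called, Nramp1 and YSL16. In the fit of the 6 Jijing88 arrays alone, IRT1 (adjusted p = 0.0569), YSL14, YSL16, BHLH063, NAAT1, NRAMP6, YSL15 and IDI2 (adjusted p = 0.0598 to 0.119) were not called. Without alkali replicates 1 and 3, which leaves 1 alkali array, Nramp1 differed by 1.68, IRT1 by 1.37, IRT2 by 1.51 and VIT1.2 by -1.42.

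Besides NAS1 and NAS2, 23 measured iron genes were not called with all arrays. They lay between -0.34 for NRAMP5, the root uptake transporter of manganese, and 0.32 for YSL12, next to which YSL13 lies. NAS3, expressed elsewhere in the plant than NAS1 and NAS2, read 10.57, 10.47 and 11.03 under alkali, against 11.03, 11.21 and 10.59 in control (-0.25 ± 0.16, adjusted p = 0.426). The deoxymugineic acid exporter tom1 read 11.89, 11.81 and 11.66 under alkali, against 11.69, 11.75 and 11.86 in control, a difference of 0.02. YSL1, YSL4, YSL7, YSL8, YSL10, YSL11 and YSL18 had group means below the array medians, where a difference is compressed. The upstream regulator IDEF1 differed by 0.26 (adjusted p = 0.124), the vacuolar transporter VIT1 by 0.20 (adjusted p = 0.244) and NRAMP4 by 0.15 (adjusted p = 0.387), each with groups that did not overlap, as for 31.6% of all genes.

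**Figure D3:**
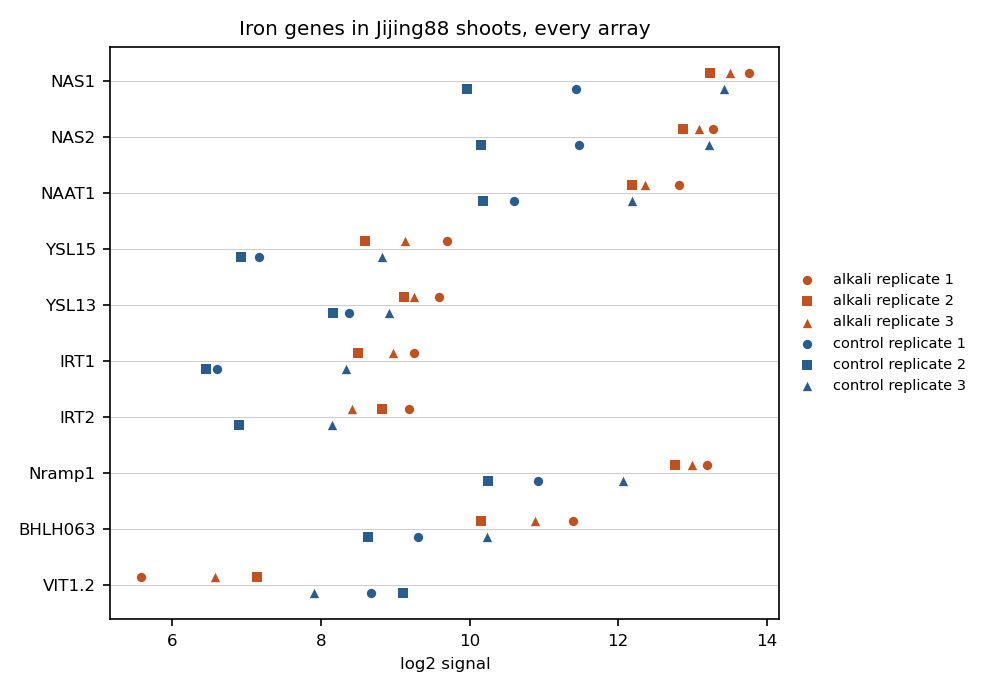
Log2 signal of 10 iron genes in every Jijing88 array, alkali in orange and control in blue. Control replicate 3 (blue triangle) lies at or near the alkali arrays for NAS1, NAS2, NAAT1 and YSL15, and between the groups for IRT1 and Nramp1; VIT1.2 is lower in every alkali array.

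The remaining gene lists are given by the number of genes called, with the range when each Jijing88 array was left out in turn in parentheses. All list members carry a name, and 18.1% of named genes and 15.6% of all genes were called. No list was tested against these shares, so its counts are descriptions. In nitrogen uptake and assimilation, 4 (2 to 4) of 21 genes were called higher and 3 (0 to 2, fewest without alkali replicate 2) lower. Beside GLT2, the ammonium transporter AMT2-1 rose, with 9.92, 9.42 and 9.72 under alkali, against 8.41, 8.02 and 8.38 in control (1.42 ± 0.14, adjusted p = 5.90e-05), and the nitrate reductase NIA1 fell, with 8.43, 8.08 and 8.35 under alkali, against 8.73, 8.73 and 9.21 in control (-0.60 ± 0.14, adjusted p = 0.0169). In organic acid metabolism, 2 (1 to 2) of 4 genes were called higher and 1 (1 to 1) lower, and the malic enzyme ME6 was the one that fell (-0.60 ± 0.09, adjusted p = 0.00137). Only 4 genes of that list carry a name, so it covers little of the pathway. In sulphate uptake and assimilation, 2 (2 to 3) of 12 genes were called higher and 1 (1 to 1) lower. A cysteine synthase, CSase (LOC4352839), read 12.94, 12.94 and 12.95 under alkali, against 12.32, 11.94 and 11.90 in control (0.89 ± 0.10, adjusted p = 0.000162), and SAT2 rose by 0.55 (adjusted p = 0.00526) where SAT1 had fallen. The call of NIA1 (adjusted p = 0.052 to 0.0675) was lost in the fit of the 6 Jijing88 arrays alone, without alkali replicate 2 and without alkali replicates 1 and 3. The call of SAT2 (adjusted p = 0.0686) was lost with the 25S covariate.

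Phosphate starvation genes were called mostly upward: 6 (3 to 8) of 23 genes were called higher and 2 (1 to 3, fewest without control replicate 1 or control replicate 2) lower (34.8% called, against 18.1% of named genes, median 0.25). The SPX proteins sense phosphate through inositol polyphosphates and restrain the starvation response. SPX1 read 10.38, 10.74 and 10.79 under alkali, against 9.97, 9.75 and 10.01 in control (0.72 ± 0.13, adjusted p = 0.00399), and SPX2, SPX3 and SPX5 were also called, at 0.52, 0.61 and 1.0. The acid phosphatase PAP2 read 11.87, 11.44 and 11.69 under alkali, against 11.10, 10.92 and 11.24 in control (0.58 ± 0.11, adjusted p = 0.00527). MGD3, a synthase of galactolipids that replace phospholipids, went the other way, with 8.89, 8.94 and 9.09 under alkali, against 9.44, 9.52 and 9.66 in control (-0.57 ± 0.10, adjusted p = 0.0023). The count of rises was 3 without either of control replicates 1 and 2 or alkali replicates 2 and 3, and 8 without control replicate 3. The call of PAP2 (adjusted p = 0.0937 to 0.192) was lost with the 25S covariate and without alkali replicates 1 and 3. Among zinc and other ZIP transporters, 3 (0 to 4, fewest without control replicate 2) of 16 genes were called higher and 1 (1 to 1) lower. ZIP3 (LOC4338051) fell, with 6.95, 7.10 and 6.95 under alkali, against 7.82, 8.11 and 7.93 in control (-0.95 ± 0.12, adjusted p = 0.000411).

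Sodium, potassium and proton transporters were mostly not called: 3 (3 to 3) of 29 genes were called higher and 2 (2 to 2) lower (17.2% called, median 0.02). The potassium transporters HAK10 and HAK23 rose, HAK10 with 10.50, 10.72 and 10.47 under alkali, against 9.92, 9.72 and 9.45 in control (0.87 ± 0.12, adjusted p = 0.000862) and HAK23 with 9.36, 8.97 and 9.15 under alkali, against 8.36, 8.49 and 8.73 in control (0.64 ± 0.11, adjusted p = 0.00306). The exchangers of calcium and protons split, with CAX1b at 6.66, 7.07 and 6.87 under alkali, against 6.13, 6.24 and 6.01 in control (0.74 ± 0.15, adjusted p = 0.00693) and CAX1a at 8.19, 7.92 and 8.30 under alkali, against 8.65, 8.74 and 9.08 in control (-0.68 ± 0.12, adjusted p = 0.00399). All 4 had groups that did not overlap, as had 31.6% of all genes. Among aquaporins and silicon channels, 4 (4 to 5) of 26 genes were called higher and 2 (1 to 4, fewest without control replicate 1 or alkali replicate 3) lower. The water channels PIP1;3, TIP1 and TIP3 rose by 1.11, 1.01 and 1.07 (adjusted p = 7.73e-05, 0.00214 and 0.000192). NIP2-2, also named Lsi6, which unloads silicon from the xylem in leaves, fell, with 9.65, 9.68 and 9.94 under alkali, against 10.86, 11.10 and 10.71 in control (-1.13 ± 0.12, adjusted p = 7.77e-05). The call of HAK23 (adjusted p = 0.0589 to 0.12) was lost with the 25S covariate and without alkali replicates 1 and 3.

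A list of CBL calcium sensors, CBL-interacting and calcium-dependent kinases, and mitogen-activated kinases was called in nearly equal numbers both ways. Of its 67 genes, 10 (6 to 13, fewest without control replicate 1 or control replicate 2 or alkali replicate 3) were called higher and 9 (6 to 8) lower, with a median of 0.01. CIPK10 read 10.31, 10.57 and 10.41 under alkali, against 9.12, 8.65 and 8.40 in control on its brightest probe set, and all 4 of its probe sets were called higher (1.70 ± 0.16, adjusted p = 3.77e-05). CIPK25 read 9.81, 9.51 and 9.59 under alkali, against 10.48, 10.70 and 10.59 in control (-0.95 ± 0.13, adjusted p = 0.00048), and the mitogen-activated kinase MPK11 read 10.03, 9.79 and 9.89 under alkali, against 9.32, 9.19 and 9.25 in control (0.65 ± 0.09, adjusted p = 0.000462).

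Abscisic acid genes were called at 20.8% of the list, close to named genes in general: 4 (2 to 5, fewest without control replicate 2) of 24 genes were called higher and 1 (0 to 2) lower. ABA1, the zeaxanthin epoxidase of the synthesis path, read 9.70, 9.04 and 9.38 under alkali, against 8.26, 8.19 and 8.22 in control (1.15 ± 0.13, adjusted p = 0.000158). The receptor PYL11 read 10.76, 10.79 and 10.80 under alkali, against 10.24, 10.14 and 10.42 in control (0.51 ± 0.09, adjusted p = 0.00373), and the kinase SAPK9 rose by 0.47 (adjusted p = 0.00966). Among LEA proteins, which protect dry cells, 2 (2 to 2) of 8 genes were called higher and 0 (0 to 0) lower. The dehydrin RAB21 read 7.86, 6.95 and 7.57 under alkali, against 6.30, 6.32 and 6.35 in control (1.14 ± 0.18, adjusted p = 0.00139), with all controls within 0.05 log2 units, and EM read 9.07, 7.91 and 8.21 under alkali, against 6.12, 5.93 and 7.11 in control (2.01 ± 0.37, adjusted p = 0.00427), with control replicate 3 again the highest control. Among osmolyte genes, 2 (1 to 3) of 17 genes were called higher and 0 (0 to 1) lower. P5CS2, an enzyme of proline synthesis, read 8.86, 8.51 and 8.38 under alkali, against 7.32, 7.47 and 7.08 in control (1.29 ± 0.12, adjusted p = 4.67e-05). Of its 4 probe sets 1 was called, and 2 had its sign. The call of PYL11 (adjusted p = 0.0747) was lost without alkali replicates 1 and 3. The call of SAPK9 (adjusted p = 0.0549 to 0.0612) was lost in the fit of the 6 Jijing88 arrays alone and without control replicate 2. The call of EM (adjusted p = 0.0742 to 0.141) was lost with the 25S covariate and without alkali replicates 1 and 3.

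Of 35 jasmonate genes, 7 (5 to 8) were called higher and 1 (0 to 1) lower (22.9% called, near the 18.1% of named genes, median 0.21). Rises covered synthesis, the receptor and the JAZ repressors, which are degraded on jasmonate perception and are themselves induced by it. JAZ5 read 6.63, 7.56 and 7.15 under alkali, against 4.98, 5.16 and 6.03 in control (1.73 ± 0.26, adjusted p = 0.00114), and JAZ9 read 7.34, 8.64 and 8.08 under alkali, against 5.54, 5.65 and 6.53 in control (2.12 ± 0.42, adjusted p = 0.00669). In both, alkali replicate 1 was the lowest alkali array and control replicate 3 the highest control. The receptor COI1B read 11.49, 11.40 and 11.43 under alkali, against 10.65, 10.58 and 10.96 in control (0.71 ± 0.11, adjusted p = 0.00142), and OPR6, an oxophytodienoate reductase, rose by 0.96 (adjusted p = 0.00162) from below the array medians. Among ethylene genes, 3 (1 to 4, fewest without alkali replicate 3) of 11 genes were called higher and 1 (0 to 1) lower. The synthesis enzyme ACO1 read 12.26, 12.26 and 12.31 under alkali, against 11.60, 11.26 and 11.71 in control (0.75 ± 0.10, adjusted p = 0.000497), and the receptor ETR2 read 8.92, 9.24 and 9.40 under alkali, against 8.67, 8.66 and 8.52 in control (0.57 ± 0.13, adjusted p = 0.0142). The calls of COI1B (adjusted p = 0.0561) and OPR6 (adjusted p = 0.102) were lost without alkali replicates 1 and 3. The call of ETR2 (adjusted p = 0.056 to 0.0798) was lost with the 25S covariate, without alkali replicate 3 and without alkali replicates 1 and 3.

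Among cytokinin genes, the 5 that fell were RR1, RR2, RR4, RR6 and RR9, type-A response regulators, which cytokinin induces and which damp its signal. The response regulators RR5, RR42, RRA14, RRA19, ORR1, ORR2, ORR3 and ORR4 were not called, with differences of -0.30 to 0.34. RR1 read 7.39, 6.65 and 6.85 under alkali, against 9.11, 9.27 and 8.48 in control (-1.99 ± 0.21, adjusted p = 8.00e-05), RR9 read 9.0, 8.29 and 8.23 under alkali, against 10.73, 10.45 and 9.41 in control (-1.69 ± 0.31, adjusted p = 0.00399), and RR6 read 9.10, 8.59 and 8.66 under alkali, against 10.46, 10.32 and 9.63 in control (-1.35 ± 0.23, adjusted p = 0.0024). RR2 read 8.04, 7.79 and 7.53 under alkali, against 8.88, 8.92 and 8.59 in control (-1.01 ± 0.14, adjusted p = 0.000538), and RR4 fell (-1.05, adjusted p = 0.0204). In RR1, RR6 and RR9 control replicate 3 was the lowest control and alkali replicate 1 the highest alkali array. In all, 4 (2 to 4, fewest without control replicate 1 or alkali replicate 2) of 31 genes were called higher and 5 (4 to 5) lower. The rises were the receptor HK3 (0.51) and the activating enzymes LOGL1, LOGL3 and LOGL9 (0.44 to 1.15). With the 25S covariate, and without alkali replicates 1 and 3, there were 0 rises and 4 falls.

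With all arrays, 4 (1 to 6, fewest without control replicate 2) of 65 auxin genes were called higher and 9 (7 to 11) lower. The median difference of the list was -0.01, the same as over all genes, so the list as a whole did not lean downward. With the 25S covariate there were 2 rises and 4 falls. The response factors ARF9 and ARF24 read 9.41, 9.38 and 9.49 under alkali, against 10.20, 10.25 and 10.22 in control (-0.80 ± 0.07, adjusted p = 4.10e-05), and 8.63, 8.53 and 8.66 under alkali, against 9.28, 9.51 and 9.53 in control (-0.83 ± 0.09, adjusted p = 0.000109), each with narrow groups. The transporter PIN5A read 8.67, 8.84 and 9.06 under alkali, against 9.47, 9.52 and 9.56 in control (-0.66 ± 0.10, adjusted p = 0.00092). ILL8, of a family whose Arabidopsis members release auxin from amino acid conjugates, read 7.42, 7.71 and 7.44 under alkali, against 8.41, 8.40 and 8.13 in control (-0.79 ± 0.12, adjusted p = 0.00119). In gibberellin metabolism, 2 (1 to 3) of 10 genes were called higher and 2 (1 to 2) lower. GA20OX2, the synthesis enzyme of the semidwarf locus sd1, read 7.15, 6.93 and 6.99 under alkali, against 6.53, 6.17 and 6.13 in control (0.75 ± 0.14, adjusted p = 0.00505), and KS1, earlier in the path, fell (-0.41, adjusted p = 0.00929). The call of ILL8 (adjusted p = 0.08) was lost without alkali replicates 1 and 3. The call of GA20OX2 (adjusted p = 0.0525 to 0.135) was lost without alkali replicates 1 and 3 and without alkali replicate 1 and control replicate 3. The call of KS1 (adjusted p = 0.0603 to 0.0619) was lost in the fit of the 6 Jijing88 arrays alone and without alkali replicate 1 and control replicate 3.

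Pigment genes split. In chlorophyll synthesis, 2 (1 to 3) of 11 genes were called higher and 1 (1 to 2) lower. GluTR, the reductase of the first committed step, read 9.31, 9.90 and 9.95 under alkali, against 11.42, 11.73 and 10.79 in control (-1.59 ± 0.20, adjusted p = 0.000366), while PORA, the light-dependent reductase of a late step, read 10.08, 9.96 and 10.21 under alkali, against 8.80, 9.20 and 8.89 in control (1.12 ± 0.13, adjusted p = 0.000152). In chlorophyll breakdown, 1 (0 to 1) of 5 genes were called higher and 1 (1 to 1) lower. NYC1, which starts the breakdown of chlorophyll b, fell, with 9.69, 9.97 and 9.82 under alkali, against 11.06, 11.06 and 10.25 in control (-0.97 ± 0.17, adjusted p = 0.00364), and its partner reductase NOL rose (0.38 ± 0.09, adjusted p = 0.0178). Of 12 genes of the photosystems and carbon fixation, 2 rose and none fell. LHCP read 14.19, 14.02 and 14.04 under alkali, against 13.58, 13.61 and 13.60 in control (0.48 ± 0.08, adjusted p = 0.00225) and CAB2R 13.99, 13.76 and 13.87 under alkali, against 13.38, 13.38 and 13.41 in control (0.49 ± 0.09, adjusted p = 0.00455). Both encode chlorophyll-binding proteins of the antenna. In the circadian clock, 3 (2 to 4) of 9 genes were called higher and 0 (0 to 0) lower. Besides PRR95, PRR1, the rice counterpart of the evening gene TOC1, rose, with 10.59, 10.44 and 10.50 under alkali, against 10.0, 9.86 and 9.90 in control (0.59 ± 0.08, adjusted p = 0.000465). The hour of harvest is not given. The calls of NYC1 (adjusted p = 0.0687 to 0.13) and CAB2R (adjusted p = 0.0698 to 0.143) were lost with the 25S covariate and without alkali replicates 1 and 3. The call of NOL (adjusted p = 0.0531 to 0.151) was lost in the fit of the 6 Jijing88 arrays alone, with the 25S covariate, without control replicate 2, without alkali replicate 3, without alkali replicates 1 and 3 and without alkali replicate 1 and control replicate 3. The call of LHCP (adjusted p = 0.0678) was lost without alkali replicates 1 and 3.

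Transcription factors of the NAC, WRKY, AP2/ERF, MYB and CCCH zinc finger families were called in the upward direction, with 14 (9 to 19, fewest without control replicate 2) of 89 genes higher and 0 (0 to 1) lower. That is 15.7% called, near the 15.6% of all genes, and the median was 0.05. MYBAS1 read 9.24, 9.26 and 9.16 under alkali, against 7.30, 7.27 and 7.75 in control (1.78 ± 0.15, adjusted p = 2.96e-05), and MPH1, also named MYB45, read 8.61, 8.43 and 8.27 under alkali, against 7.52, 7.42 and 7.89 in control (0.82 ± 0.13, adjusted p = 0.00182). C3H37 read 10.91, 11.84 and 11.35 under alkali, against 9.04, 8.71 and 9.64 in control, and C3H35 rose by 0.75 (adjusted p = 0.000954). Among heat shock genes, 4 (3 to 5) of 48 genes were called higher and 4 (2 to 7, fewest without control replicate 2 or alkali replicate 2 or alkali replicate 3) lower. The called falls included the small heat shock proteins HSP24.1, with 8.28, 8.47 and 8.37 under alkali, against 9.34, 9.40 and 10.19 in control (-1.27 ± 0.19, adjusted p = 0.000993), and HSP17.4 (-1.09 ± 0.19, adjusted p = 0.00272). The factor HSF25, whose annotation also carries the name ARD1, rose by 1.13 on its brightest probe set (adjusted p = 0.000493). Its other probe set differed by 0.03 (adjusted p = 0.947). HSF03 rose by 0.85 (adjusted p = 0.00323). The call of HSP24.1 (adjusted p = 0.0549) was lost without alkali replicates 1 and 3. The call of HSP17.4 (adjusted p = 0.056 to 0.0791) was lost with the 25S covariate and without alkali replicates 1 and 3.

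Of 32 defence genes, 4 (4 to 5) rose and 0 fell (12.5% called). RBBI3.3, a Bowman-Birk inhibitor of trypsin, read 12.90, 12.90 and 12.62 under alkali, against 11.21, 11.20 and 11.23 in control (1.59 ± 0.12, adjusted p = 1.54e-05). The chitinases Cht-1 and Cht6 read 10.33, 10.33 and 10.28 under alkali, against 8.86, 9.15 and 8.57 in control (1.45 ± 0.14, adjusted p = 6.08e-05), and 7.97, 7.01 and 7.26 under alkali, against 5.95, 5.67 and 6.03 in control (1.53 ± 0.19, adjusted p = 0.000314). The germin-like protein GLP2 read 9.46, 8.48 and 8.84 under alkali, against 7.51, 7.24 and 7.44 in control (1.53 ± 0.18, adjusted p = 0.000226). All 4 held their call in every alternative tried. In tryptophan and melatonin synthesis, 2 (2 to 2) of 8 genes were called higher and 0 (0 to 3) lower, and ASMT3 joined ASMT1, with 4.91, 5.30 and 5.11 under alkali, against 4.09, 3.93 and 4.45 in control (0.95 ± 0.14, adjusted p = 0.000795). Both group means of ASMT3 lay below the array medians. Among antioxidant enzymes and glutaredoxins, 5 (4 to 8) of 59 genes were called higher and 4 (1 to 5, fewest without alkali replicate 2 or alkali replicate 3) lower (15.3% called), and 8 rises without control replicate 3. The cytosolic ascorbate peroxidase APX1 fell, with 11.36, 11.68 and 11.69 under alkali, against 12.47, 12.74 and 12.32 in control (-0.94 ± 0.12, adjusted p = 0.000339). Catalase CAT-A rose, with 13.87, 13.88 and 14.03 under alkali, against 13.67, 13.44 and 13.34 in control (0.44 ± 0.09, adjusted p = 0.00847), and so did the glutathione transferase GSTZ5 (0.61, adjusted p = 0.000974). The call of CAT-A (adjusted p = 0.06 to 0.142) was lost in the fit of the 6 Jijing88 arrays alone, with the 25S covariate and without alkali replicates 1 and 3. The call of GSTZ5 (adjusted p = 0.0576) was lost without alkali replicates 1 and 3.

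With all arrays, more cell cycle and cell wall genes were called lower than higher. In the cell cycle and DNA replication, 6 (5 to 7) of 68 genes were called higher and 12 (1 to 16, fewest without control replicate 2) lower (26.5% called, median -0.20). This order did not hold without control replicate 2, with 5 rises and 1 fall, and was nearly even without control replicate 3, with 5 rises and 6 falls. The kinase CDKA-2 fell on all 3 of its probe sets, with 7.75, 7.60 and 7.49 under alkali, against 8.40, 8.73 and 8.54 in control on the brightest (-0.94 ± 0.10, adjusted p = 8.57e-05). The cyclin CYCD5-1 and the kinase inhibitor KRP4 rose, with 8.16, 8.17 and 8.08 under alkali, against 7.28, 7.06 and 7.31 in control (0.92 ± 0.09, adjusted p = 4.94e-05), and 10.13, 10.06 and 10.04 under alkali, against 9.45, 9.37 and 9.27 in control (0.71 ± 0.10, adjusted p = 0.000499). In cell wall growth, 2 (1 to 3, fewest without control replicate 1 or alkali replicate 2) of 62 genes were called higher and 9 (4 to 10, fewest without control replicate 2 or alkali replicate 2) lower. That is 17.7% called, near the 18.1% of named genes, and the median was -0.14. The cellulose synthase CESA6 of growing walls read 10.99, 10.81 and 11.03 under alkali, against 11.41, 11.48 and 11.58 in control (-0.54 ± 0.09, adjusted p = 0.00182), and the expansin EXPB17 fell (-0.61, adjusted p = 0.00644). CSLE1, a cellulose synthase-like gene, went the other way, with 11.17, 10.40 and 10.71 under alkali, against 9.15, 8.88 and 9.13 in control (1.71 ± 0.15, adjusted p = 3.62e-05).

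In starch and sucrose metabolism, 4 (3 to 4) of 44 genes were called higher and 7 (5 to 7) lower. Sucrose synthase SUS4 rose, with 10.68, 10.51 and 10.77 under alkali, against 9.71, 9.55 and 9.60 in control (1.04 ± 0.10, adjusted p = 3.94e-05), as did GBSS1, the amylose synthase of the waxy locus, with 7.70, 7.70 and 7.15 under alkali, against 6.59, 6.42 and 6.51 in control (1.0 ± 0.13, adjusted p = 0.000478). The soluble starch synthases SSII-1 and SS1 fell, SSII-1 with 7.76, 7.92 and 7.68 under alkali, against 8.59, 8.86 and 8.48 in control (-0.85 ± 0.10, adjusted p = 0.000222) and SS1 (-0.76, adjusted p = 0.00101). Of 19 genes of glycolysis and the anaerobic response, the hexokinase HXK6 alone was called, with 8.91, 8.64 and 8.92 under alkali, against 7.29, 7.0 and 7.27 in control (1.63 ± 0.12, adjusted p = 1.08e-05). None of 24 cytosolic ribosomal protein genes was called (median -0.06), and at an adjusted p of 0.143 CL27 came nearest, with 12.56, 12.51 and 12.62 under alkali, against 12.85, 12.78 and 12.65 in control. At most 2 were called lower with an array left out.

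**Figure D4:**
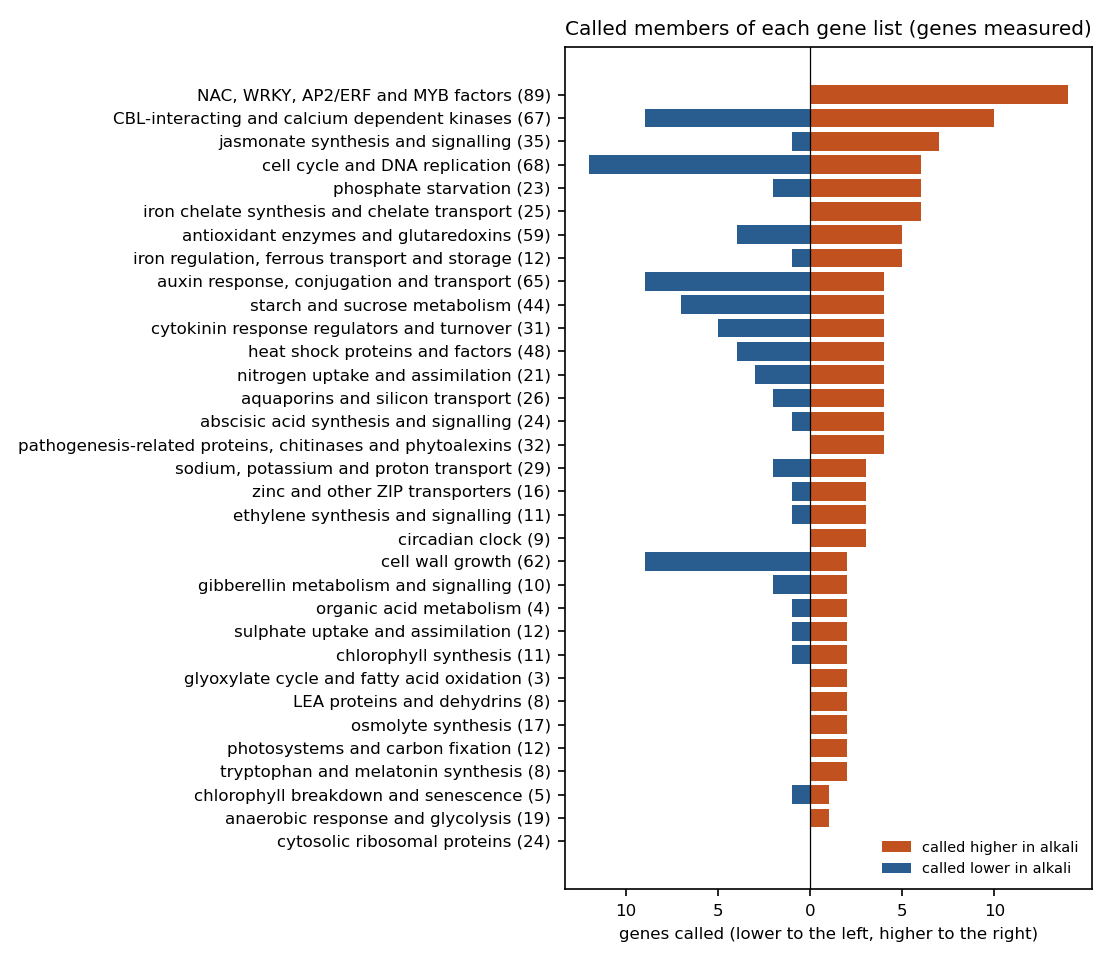
Number of genes called in each of the 33 lists, higher under alkali to the right and lower to the left, with the number of genes measured in parentheses. The factor list has 14 higher and 0 lower, and the cell cycle list 6 higher and 12 lower.

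Some genes varied widely between the replicates of 1 group. Under alkali, these were ICL, MS and a set of stress and hormone genes that stayed near the control level in alkali replicate 1. CBF3, a cold and drought response factor also named DREB1A, read 4.58, 8.57 and 7.80 in alkali replicates 1, 2 and 3, against 4.32, 4.10 and 5.15 in control replicates 1, 2 and 3. DREB1B, separated from it in the genome by 1 gene, read 5.65, 8.32 and 7.28 under alkali, against 5.79, 5.57 and 5.85 in control. The jasmonate repressor JAZ13 read 5.52, 8.51 and 7.87 under alkali, against 5.48, 5.09 and 6.59 in control, and ABA8OX1, which degrades abscisic acid, read 6.12, 9.04 and 8.79 under alkali, against 5.58, 5.63 and 5.96 in control. In all 4, alkali replicates 2 and 3 were high and replicate 1 was not, whereas ICL and MS were highest in replicate 1. None was called with all arrays and no replicate block (adjusted p = 0.0752 to 0.308). Without alkali replicate 1, CBF3, DREB1B and ABA8OX1 passed the test, and JAZ13 did not. These genes were picked for their spread over the alkali arrays, so leaving out the array that stood apart is no independent test of them. In control, the wide spreads lay in replicate 3. Beside NAS1 and NAS2, the haemoglobin NSHB2 read 4.82, 5.50 and 5.41 under alkali, against 4.70, 4.70 and 8.49 in control, the calmodulin-like CML31 read 7.67, 8.05 and 7.49 under alkali, against 6.54, 5.8 and 9.04 in control, and the laccase LAC24 read 10.31, 9.34 and 10.15 under alkali, against 7.61, 6.77 and 9.86 in control. In GRXC15, a glutaredoxin, control replicate 3 was low instead, with 6.88, 8.07 and 7.68 under alkali, against 7.53, 7.86 and 4.43 in control. LAC24 was not called with all arrays (1.85 ± 0.58, adjusted p = 0.0723) and was called without control replicate 3. It was picked for its spread over the control arrays, so that call is no independent support either.

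The K83 shoots, treated in the same way, give a second set of arrays with their own controls, and 12.9% of genes were called there. Of the 382 genes that rose at least 2-fold in Jijing88, 232 (60.7%) also rose in K83, 154 of them at least 2-fold, which is 40.3% of the Jijing88 rises and 65.5% of the 235 such rises in K83. Of the 116 falls, 79 (68.1%) were called lower in K83 too. The effect itself was called different between the lines for 185 of 17905 genes (1.03%) and 360 probe sets (0.629%), and for 17 genes named here. The 360 were 107 without K83 alkali replicate 3, 646 without control replicate 3 and 66 with the 25S covariate. ASMT1 rose by 2.67 in Jijing88 and by 0.49 in K83, so that the K83 effect minus the Jijing88 effect was -2.19 (adjusted p = 0.00168). PORA was 1.12 in Jijing88 and -0.57 in K83 (difference so taken -1.69, adjusted p = 0.00140), and ABA1 1.15 in Jijing88 and -0.32 in K83 (-1.47, adjusted p = 0.00406). PRR95 was 2.26 in Jijing88 and 0.60 in K83 (-1.66, adjusted p = 0.00579). ILL8 was -0.79 in Jijing88 and 0.66 in K83 (1.45, adjusted p = 0.00244). Nramp1 was 1.90 in Jijing88 and 4.88 in K83 (2.98, adjusted p = 0.0122), and IRT2 1.50 in Jijing88 and 3.95 in K83 (2.45, adjusted p = 0.0267). ICL was 3.64 in Jijing88 and 3.90 in K83, with no difference called (adjusted p = 0.921). The differences of ASMT1, PORA and ABA1 held in every alternative, those of PRR95, ILL8 and Nramp1 in all but the one without alkali replicates 1 and 3, and that of IRT2 in 13 of 21.

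**Figure D5:**
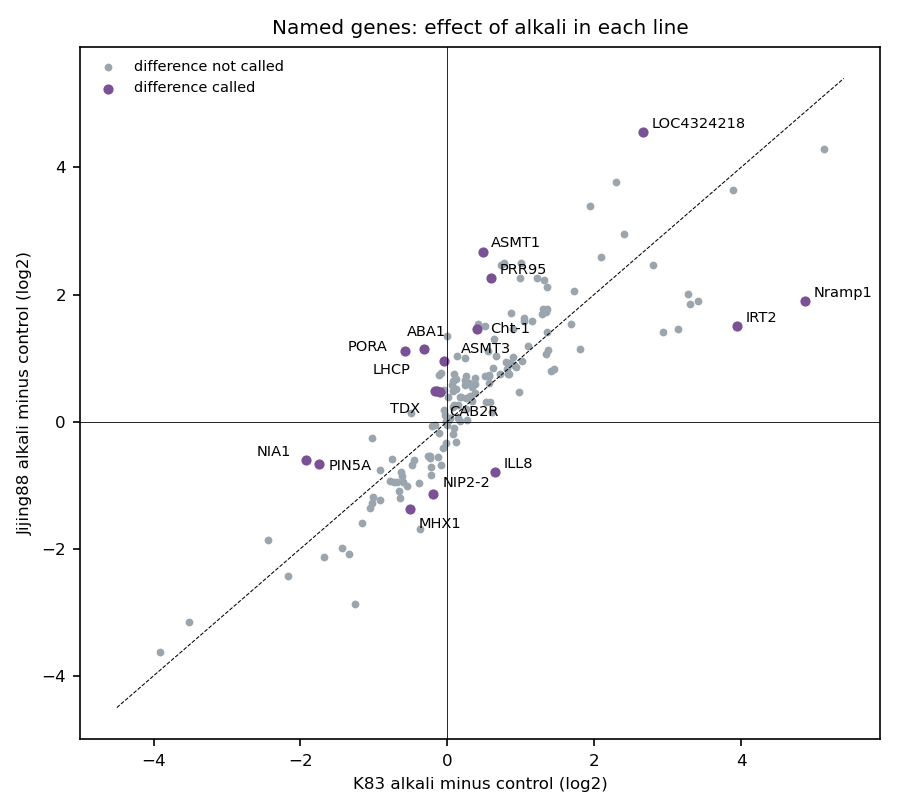
Alkali minus control on the log2 scale for the 165 named genes, Jijing88 on the vertical and K83 on the horizontal axis, with a dashed line where both effects are equal. Purple points are the 17 genes whose effects differ at an adjusted p under 0.05; Nramp1 and IRT2 lie below the line, ASMT1, PRR95 and PORA above it.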

How the data were processed

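Total RNA of shoots was hybridised to Affymetrix rice arrays, with 12 arrays in 4 groups of 3. The values as deposited are on a log2 scale, 1 per probe set and array, made with RMA (background correction, quantile normalization and summary), which the submitters' processing notes name with limma and no version. The log base was read from the values. Quantile normalization gives all arrays the same distribution, so a shift of the whole transcriptome cannot be seen, and the number of arrays limits the precision. After 123 AFFX control probe sets were left out, 57258 were tested with limma 3.58.1 in R 4.3.3 in 1 fit of 4 group means (8 residual degrees of freedom), with Benjamini-Hochberg adjustment over all of them and a threshold of 0.05. Adjusted p-values are from it unless an alternative fit or a left-out array is named. Control probe sets were compared with exact permutation tests.

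The platform annotation gave 1 gene to 22436 probe sets, several to 95 and none to 34727, and names came from RefSeq. A gene was read from its brightest probe set. Members, gene lists and tests were chosen with earlier results of these data known. The text names, among named genes called without overlap, the 14 that rose most and the 14 that fell most, up to 4 called genes per list by smallest p, iron and glyoxylate genes, the 6 most variable genes per group, and 3 locus-only genes per direction. HK3, LOGL1, LOGL3, LOGL9, RR4, SPX2, SPX3, SPX5 and the uncalled response regulators fall outside that rule and were picked after their values were seen. Alternatives were the 6 arrays alone, a replicate block, other normalizations, a filter on dim probe sets, a trended robust fit, array weights, a 25S covariate, and arrays left out.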

Additional observations from a re-analysis of the deposited data

Results flagged for a closer look

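The alkali effect differed between the lines in 17 of the genes named above (limma, interaction of line and alkali, adjusted over all probe sets). Values are the K83 effect minus the Jijing88 effect on the log2 scale. The difference was -2.19 for ASMT1, -1.69 for PORA, -1.47 for ABA1 and -1.09 for PIN5A, and these 4 were called in all alternatives run. It was -1.66 for PRR95, 1.45 for ILL8 and 2.98 for Nramp1, each lost only without alkali replicates 1 and 3, which leaves 1 Jijing88 alkali array. NIA1 at -1.31 was lost there and with the 25S covariate (highest adjusted p = 0.147).

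LOC4324218 at -1.89 was called in 16 of 21 alternatives and IRT2 at 2.45 in 13 of 21. LHCP at -0.65 and NIP2-2 at 0.93 were called in 11 of 21 each, and ASMT3 at -0.99 in 8 of 20. Cht-1 at -1.04 was called in 7 of 21, TDX at -0.57 and MHX1 at 0.88 in 6 of 21 each, and CAB2R at -0.63 in 5 of 21. Calls of these 9 were lost when single arrays were left out, 2 arrays for LOC4324218, 5 for IRT2 and 7 to 11 for the other 7. All 9 were also lost with the 25S covariate.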

How the results depend on the processing

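The count of called probe sets in Jijing88 was 4789. It was 2768 in the fit of the 6 arrays alone, 2184 with the 25S covariate and, chosen after seeing the data, 1857 without alkali replicates 1 and 3, and the cause was not tested. With each array of either line left out in turn it lay between 2666 and 5463, lowest without control replicate 2. The 802 changes of at least 2-fold lay between 643 and 1003. The 360 differences between the lines were 626 with dim probe sets left out, 656 in the trended robust fit, 658 with array weights, 66 with the 25S covariate and 43 without alkali replicates 1 and 3. With each array left out they lay between 107 (without K83 alkali replicate 3) and 646 (without control replicate 3), and they moved by more than 1.5 times also without control replicate 1 (186), alkali replicate 1 (197) or 3 (189), K83 alkali replicate 1 (143) or 2 (136), and K83 control replicate 2 (124) or 3 (130). With each array centred on its median, 110 were higher in K83 and 304 lower, against 153 and 207. Of 18 same-number pairs, 7 had deviations correlated above 0.1, with the highest, 0.216, between the control replicates 3 of both lines. Pairs of unlike number were not compared, so whether the replicate numbers pair the arrays was not tested. With the replicate block, 5075, 841 and 322 probe sets were called, and ABA8OX1 was called (2.26, adjusted p = 0.0153). The 25S difference lay between 0.61 and 1.52. Of 165 named genes 130 were called, 76 of them under every alternative. No call changed direction. The 25S covariate ended 34 calls, and the fit of 6 arrays and leaving out control replicate 2 ended 24 each. The alternative without alkali replicates 1 and 3 leaves 1 Jijing88 alkali array, so a call lost there does not show a smaller difference. Promoter and protein sequences were not used. Signals below the array medians (5.13 to 5.18) limit the measured size of a change.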
